A study of Drosophila melanogaster with 2 samples.

Results

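Distal intergenic peaks of the transcription factor Rfx in Drosophila melanogaster embryos were the 617 peaks whose summit lay outside every annotated gene body and more than 2000 bp from the nearest transcription start site (TSS) of any gene. They were 6.67% of the 9247 peaks on the chromosome arms (95% Wilson interval 6.18 to 7.20), out of 9250 peaks in the main set. The rule used position alone and no signal. The embryos came from a transgenic strain that carried Rfx fused to enhanced green fluorescent protein (eGFP), were 0 to 24 h old and were sampled whole, so tissues and stages were mixed and a peak does not say in which cells it arose. Sonication gave chromatin pieces of 200 to 800 bp, and precipitation went through the eGFP tag, although the antibody is entered in the labels as Rfx. There were 2 biological replicates of this 1 genotype and no second condition, so no test between groups was possible and the values below are descriptions. The sex of the embryos was not collected, and the control library was not analysed here.

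Rfx is the fly member of the RFX family, transcription factors with a winged-helix DNA-binding domain that bind a palindromic element called the X-box. In animals the family is best known for switching on genes of cilia, and in the fly Rfx is needed in ciliated sensory neurons. Promoters are the usual place of the X-box in such genes, while DNA far from any start site holds enhancers, insulators and other elements that gene annotation does not mark.

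The sequences that follow show a family of 7-letter words, built on the letters CAGTG or their reverse complement CACTG, that a share of the distal intergenic peaks had beside the summit. Words of the family that read away from the summit were present at 177 of the 617 peaks, and on both sides of it at 46. The 3 windows below reach 100 bp to each side of the summit, on the plus strand of dm6. They belong to the strongest members outside the right arm of chromosome 2 that carried such words on both sides within 100 bp and are not shown again further down, and the choice was made after the values had been seen. Capitals mark the words. The window between slp1 and slp2, a pair of forkhead genes of segmentation, was chr2L:3832424-3832624. The window between noc, a zinc-finger gene of head development, and CG33648 was chr2L:14502675-14502875. The window between Doc2 and Doc1, T-box genes of the embryonic heart and amnioserosa, was chr3L:9025798-9025998.
slp1 to slp2: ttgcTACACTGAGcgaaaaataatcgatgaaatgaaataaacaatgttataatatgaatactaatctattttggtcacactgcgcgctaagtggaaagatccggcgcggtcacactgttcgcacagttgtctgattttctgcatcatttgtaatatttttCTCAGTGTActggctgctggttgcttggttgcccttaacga
noc to CG33648: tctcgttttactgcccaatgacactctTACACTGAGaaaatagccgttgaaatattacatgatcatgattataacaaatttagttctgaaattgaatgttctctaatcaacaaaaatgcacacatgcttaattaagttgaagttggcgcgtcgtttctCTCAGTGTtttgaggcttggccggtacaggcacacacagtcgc
Doc2 to Doc1: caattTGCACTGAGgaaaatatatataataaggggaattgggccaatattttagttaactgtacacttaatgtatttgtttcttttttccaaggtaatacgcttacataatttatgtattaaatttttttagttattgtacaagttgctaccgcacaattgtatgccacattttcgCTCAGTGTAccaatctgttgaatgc
In each window the CACTG form stands to the left of the summit and the CAGTG form to the right.

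The 5 members with a strict X-box are shown with their site in capitals and 10 bases on each side, on the plus strand of dm6. The strict X-box was a pair of short arms, GTNRCC and RGNAAC, with a spacer of at most 3 bases, on either strand. Here N is any base and R is A or G, so the arms need not form an exact palindrome. The sites lay at chr2L:7641866-7641877 beside Slob, a regulator of a potassium channel, at chr2L:4125027-4125038 between the scavenger receptor gene Sr-CI and CG2955, and at chr3L:6899451-6899464 between vvl and Prat2. The other two lay at chr3R:31296202-31296216 between the channel genes ppk24 and pHCl-2 and at chrX:16537037-16537050 between the sodium channel gene para and CG9903.
CG6739 to Slob: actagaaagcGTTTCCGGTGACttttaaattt
Sr-CI to CG2955: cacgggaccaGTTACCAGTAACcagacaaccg
vvl to Prat2: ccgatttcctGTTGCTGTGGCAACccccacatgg
ppk24 to pHCl-2: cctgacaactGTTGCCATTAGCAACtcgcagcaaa
para to CG9903: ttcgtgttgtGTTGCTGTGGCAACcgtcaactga
The vvl and para sites held the same 14 letters.

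The windows at the strongest distal intergenic peaks outside the right arm of chromosome 2, and at the strongest peak of the largest cluster, are given to show what strong members looked like. Each reaches 100 bp to each side of the summit on the plus strand of dm6, and capitals mark any of the 12 motifs searched. The window before foxo, the forkhead gene of insulin signalling, was chr3R:14053513-14053713. The windows between RFeSP and chinmo, a BTB zinc-finger gene of neuronal timing, were chr2L:1632733-1632933 and chr2L:1638672-1638872. The window between CG13970 and CG10651 was chr2L:20120961-20121161, and that between NijA, a ninjurin adhesion gene, and CG43245 was chr3L:10739794-10739994.
CG9922 to foxo: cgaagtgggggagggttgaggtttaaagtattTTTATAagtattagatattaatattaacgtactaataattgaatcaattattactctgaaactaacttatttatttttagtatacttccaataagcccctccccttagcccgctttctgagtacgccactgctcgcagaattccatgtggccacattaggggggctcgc
RFeSP to chinmo, first: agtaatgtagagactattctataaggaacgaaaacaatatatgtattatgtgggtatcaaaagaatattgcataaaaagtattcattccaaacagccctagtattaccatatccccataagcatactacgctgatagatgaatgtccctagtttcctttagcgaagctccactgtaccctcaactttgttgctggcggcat
RFeSP to chinmo, second: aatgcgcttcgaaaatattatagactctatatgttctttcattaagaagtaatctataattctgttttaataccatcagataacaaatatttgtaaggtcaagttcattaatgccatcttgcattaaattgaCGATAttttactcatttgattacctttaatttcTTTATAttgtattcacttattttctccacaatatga
CG13970 to CG10651: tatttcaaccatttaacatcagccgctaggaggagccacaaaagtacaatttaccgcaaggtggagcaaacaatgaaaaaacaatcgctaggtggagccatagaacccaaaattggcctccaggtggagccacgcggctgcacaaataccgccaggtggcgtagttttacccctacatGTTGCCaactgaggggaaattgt
NijA to CG43245: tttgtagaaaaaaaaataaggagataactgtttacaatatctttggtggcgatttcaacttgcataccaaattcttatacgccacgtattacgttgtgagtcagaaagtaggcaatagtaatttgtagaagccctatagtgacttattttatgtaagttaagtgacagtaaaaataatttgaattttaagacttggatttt
None of these 5 windows held a strict X-box, and 2 of them held none of the 12 motifs. The CG13970 window held 4 copies of AGGTGG, a word looked for after the window had been read. It was the only distal intergenic peak with 3 or more copies within 100 bp of the summit, against 7 such peaks in the whole set.

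The replicates' own sets held 6290 and 6953 peaks on the arms, of which 437 and 367 were distal intergenic, and the authors' conservative set held 6978 peaks, of which 443 were. The distal share was thus 6.11% ± 1.18 (SD, n = 2 replicate sets). Signal is the peak caller's enrichment value on an unstated scale, so it is given within a list and as a percentile, the share of main-set signals that a peak exceeds. The files hold no read counts and the depth is unknown. Intervals count peaks or genes, so they reflect counting error alone.

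Peaks were sparser in distal intergenic DNA than in the rest of the arms, which includes the DNA near start sites. A density for gene bodies far from a TSS alone is not given here. The DNA that could hold such a peak came to 31.4 Mb, 22.8% of the arms, and held 19.65 peaks per Mb, against 81.3 per Mb in the rest of the arms and 67.2 per Mb over the arms as a whole. The replicates' own sets gave 13.9 and 11.7 per Mb. Within intergenic DNA the density fell with each step away from a TSS, from 517 peaks per Mb within 500 bp to 86.0 between 500 and 1000 bp and 51.6 between 1000 and 2000 bp. Beyond the 2000 bp limit it went on falling, to 37.6 per Mb up to 5000 bp (346 peaks), 22.8 up to 10000 bp (168 peaks), 15.2 up to 20000 bp (79 peaks) and 2.50 farther out (24 peaks). The same order was found in the sets of both replicates. The outermost DNA differs in kind, since 43.8% of its 9.61 Mb is soft-masked repeat and 1.67 Mb lies on the Y chromosome, and the part of repeats in the low value was not tested.

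**Figure D1:**
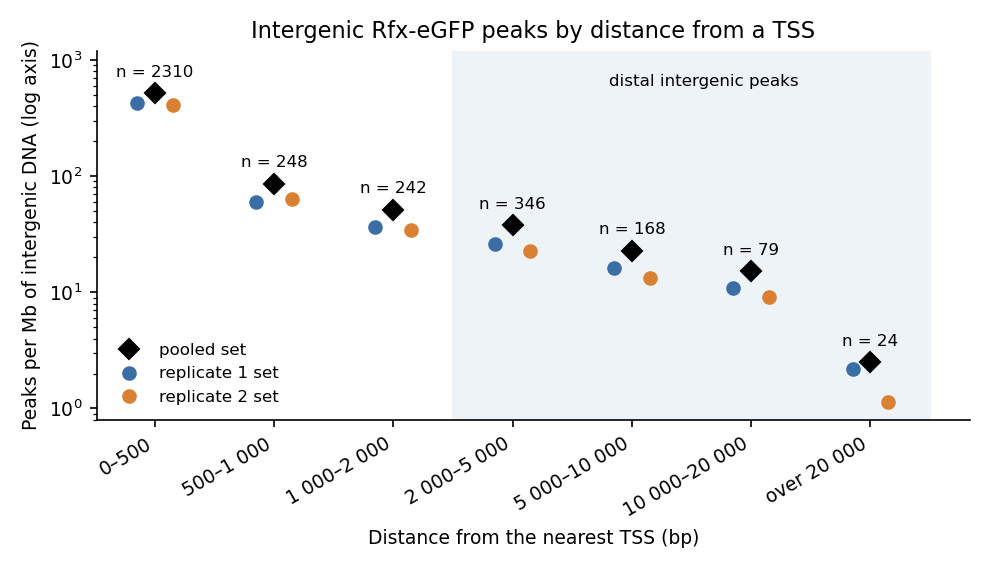
Peaks per Mb of intergenic DNA (log axis) in 7 ranges of distance from the nearest TSS, for the pooled main set (diamonds, with the number of peaks) and each replicate's own set (circles). The shaded 4 ranges are the distal intergenic peaks, whose density fell from 37.6 to 2.50 per Mb in the pooled set.

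The median distal intergenic summit lay 4602 bp from a TSS, and 103 of the 617 lay more than 10 kb away. The 3 farthest lay 39064 bp away beside the glutamate receptor gene GluRIB, with a signal of 69.7, 37681 bp away between the bric-a-brac transcription factor genes bab1 and bab2, with a signal of 223.6, and 36798 bp away between NijA and CG43245, with a signal of 104.5. Of these 3 the bab peak overlapped the sets of both replicates and the other two overlapped neither. Just inside the limit stood peaks 2007 bp from lmd (signal 341.7), 2017 bp from CG14095 (73.0) and 2031 bp from Act87E (131.3). Just outside stood peaks 1993 bp from CG4218 (115.6), 1978 bp from Cipc (111.2) and 1970 bp from Or45b (73.2). These few peaks cannot show whether the signal changes at the limit.

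The chromosome arms held distal intergenic peaks unevenly. Per Mb of eligible DNA there were 25.2 on 3R (150 peaks), 23.9 on 2L (122), 21.5 on 3L (161), 21.4 on X (90) and 15.2 on 2R (93). The single peak on Y gave 0.430 per Mb there. Chromosome 4 had none in the main set, although replicate 2's own set had 4 there. Arm 2R had the lowest density of the 5 large arms in both replicates, at 10.8 per Mb in replicate 1 and 8.96 in replicate 2. The order of the other large arms differed between the replicates: 2L led in replicate 1 with 18.05 per Mb and 3L led in replicate 2 with 15.9.

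Distal intergenic peaks were weak as a group, at a level close to that of peaks deep inside genes. Their signals ran from 2.98 to 2088.69 with a median of 101.2, against 119.5 for all peaks. The median percentile was 40.01, against 61.8 for intergenic peaks near a TSS, 47.3 for peaks in gene bodies near a TSS and 40.6 for peaks in gene bodies far from one. Ranked by each replicate's own signal, the median percentile of the distal peaks was 41.6 in replicate 1 and 36.7 in replicate 2. The top 10% of all peaks took in 38 of them (6.16%) and the bottom 10% took in 75. Signals under 10 were found for 12 distal peaks, among 127 such peaks in all, and 8 of the 12 nonetheless had the highest score of 1000. Their surroundings were emptier too, with a median distance to the next peak of any kind of 4074.5 bp against 1955 bp for all peaks. For peaks in gene bodies far from a TSS it was 2417 bp. The rule sets distal summits over 2000 bp from every TSS, while the median of all peaks lay 482 bp from one. The distance to the next peak is therefore not independent of the rule. The DNA around the distal summits had a median GC content of 37.3%, against 38.8% for all peaks. Intergenic peaks near a TSS had the same median of 37.3%, and peaks in gene bodies far from one had 37.8%.

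The strongest distal intergenic peaks stood high in both replicates. The strongest, on 2R from 13035182 to 13035493, lay between Su(z)2, a Polycomb group gene, and CG13323, 11913 bp from a TSS in an intergenic gap of 36783 bp. Its signal was 2088.69 in the pooled set, and it had 1210 in replicate 1 and 867.8 in replicate 2, the 99.5th and 99.6th percentiles. The peak before foxo had a pooled signal of 1711, with 1083 in replicate 1 and 635.8 in replicate 2, and its summit lay 3332 bp from the start of foxo. All 12 of the strongest overlapped the sets of both replicates and the conservative set. Of all peaks above the 80th percentile, both replicate sets held 98.0%, and of the distal ones 96.4%, so such overlap was usual at this strength.

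Of the other ten, 3 lay in the gap between RFeSP and chinmo, with pooled signals of 1435, 1261 and 980.4. The peak on 2R between blw, the gene of the ATP synthase alpha subunit, and CycB, the gene of cyclin B, had 1227. It lay in a gap of only 1340 bp between the facing 3′ ends of the pair, which shows that a summit can be far from every start and still close to genes. The peak between CG13970 and CG10651 had 1140 and the peak between hng3 and CG13898 had 1039. The remaining members of the group were peaks between CG9932 and Ttc30, a gene of intraflagellar transport (976.6; the nearest annotated gene on that side was lncRNA:CR44197), between the immunoglobulin-domain gene dpr17 and CG4702 (941.1), between CG7484 and Crtc, a coactivator of CREB (936.2), and between NijA and CG43245 (828.1). The nearer end of Ttc30, which was not on the list of cilium genes used below, lay 22986 bp from the summit. In each of the 12 the signal of replicate 1 was the higher one, which says nothing by itself since the scales of the replicates are not shared.

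Replicate overlap was lower among distal intergenic peaks than over the whole set in replicate 2 and close to it in replicate 1. Of the 617, 386 (62.6%, Wilson interval 58.7 to 66.3) overlapped a peak of the replicate 1 set, against 65% of all peaks. For replicate 2 the count was 320 (51.9%, 47.9 to 55.8), against 67.9% of all peaks. Both sets held 243 of the distal peaks (39.4%), against 49.6% of all peaks, and neither held 154 (24.96%), against 16.8%. The conservative set overlapped 420 (68.1%), against 72.5%. Peaks in gene bodies far from a TSS were close to the distal peaks in these last shares. Of them 40.8% were in both replicate sets, 23.6% in neither and 66.4% in the conservative set. The replicate 1 set held 58.2% of them and the replicate 2 set 59.0%.

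Overlap rose with signal among distal peaks and among all peaks. Between the 60th and 80th percentiles both replicate sets held 92.4% of the distal peaks and 87.6% of all peaks. Between the 20th and 40th, the replicate 1 set held 48.6% of the distal peaks against 39.2% of all, while the replicate 2 set held 29.5% against 46.5%. In all, 143 distal peaks (23.2%) were found in the replicate 1 set only and 77 (12.5%) in the replicate 2 set only. The Spearman correlation of the replicates' signals was 0.628 over the 544 distal peaks that both ranked lists give a signal, against 0.693 over 8217 of all peaks. It is a description, since the peaks share both libraries and were chosen by reproducibility.

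**Figure D2:**
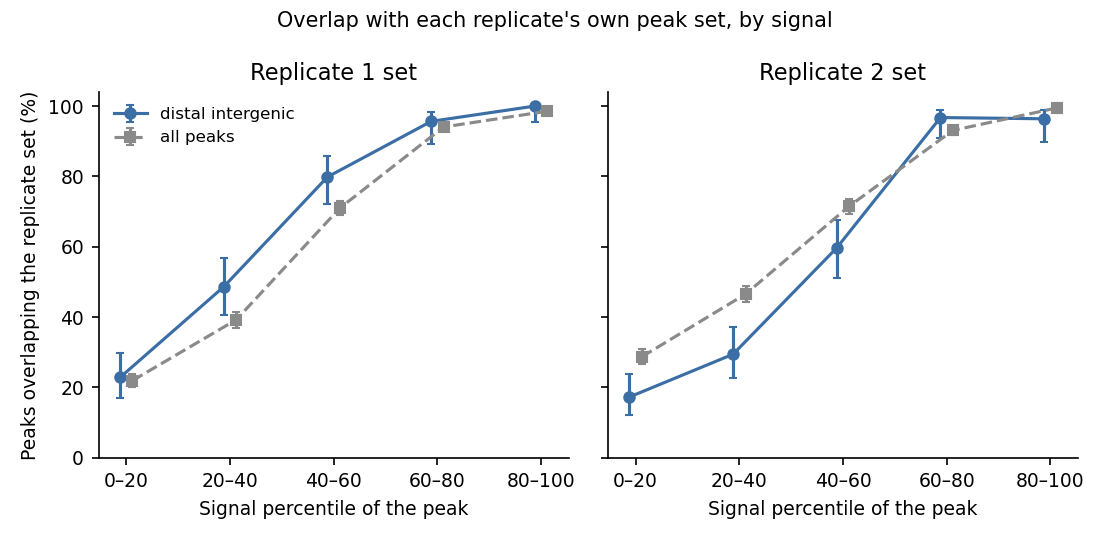
Percent of peaks that overlap the set of replicate 1 (left) or replicate 2 (right) in 5 bands of pooled signal percentile, for the 617 distal intergenic peaks (circles) and all 9247 peaks (squares), with 95% Wilson intervals as bars. In the 20 to 40 band the distal peaks lie above all peaks in replicate 1 (48.6% against 39.2%) and below them in replicate 2 (29.5% against 46.5%).

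Single peaks differed widely between the replicates. The peak between SoxN, a Sox-family gene of the early nervous system, and CG32986 (2L, 8845917 to 8846260) stood at the 8.66th percentile in replicate 1 and at the 74.9th in replicate 2. The peak between DIP-delta and CG4835 stood at 19.8 and 82.7, and the peak between CG5290 and the ecdysone-response gene Eip75B at 11.1 and 72.4. In the opposite direction, peaks between CG6168 and CG6163 stood at 52.8 and 4.57 and at 61.2 and 14.0, and the peak between CG43229 and Frq1 at 51.1 and 3.68. These 6 were picked as the extremes and do not describe the group.

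Words beside the summit came out of a ranking of short words. All 7-letter words within 75 bp of the summit were ranked on arms 3L and 3R by their excess over windows 1000 bp away, with both strands counted as one, and 5 of the top 12 words shared CAGTG or CACTG. The first in rank, CAGTGCA, was found in 11.3% of the distal peaks on the ranking arms and 6.86% on the other arms. The shares were 6.75% and 8.50% for CTCAGTG, 7.72% and 7.19% for CAGTGTA, 6.75% and 7.19% for TCAGTGC, and 5.79% and 5.88% for TCAGTGT. Any word of the family was found in 22.5% of the distal peaks on the 2 ranking arms and in 66 of 306 (21.6%, Wilson interval 17.3 to 26.5) on the other arms, where the windows 1000 bp away gave 6.54% and 6.21%. The split by arms was made after the words had been seen over all members, so the other arms are not a fully separate set. In the replicates' own sets the family was found in 21.5% and 17.7% of the distal peaks.

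The words had a direction that the ranking had not used. Between 20 and 150 bp from the summit, 393 words of the family read away from the summit, with CAGTG to its right or CACTG to its left on the plus strand, and 59 read toward it, so 86.9% read away. On the arms not used for ranking the counts were 204 and 31. Of the 617 distal peaks, 177 (28.7%, Wilson interval 25.3 to 32.4) had at least 1 word that read away and 46 had one on each side, while 47 (7.62%) had a word that read toward the summit. Around points 1000 bp downstream of the summits, words reading away were present for 4.38% and words reading toward for 5.83%, and none of the 617 points had outward words on both sides. The replicates' own distal peaks gave 31.1% and 23.4% for words reading away, or 27.3% ± 5.44 (SD, n = 2), and 6.68% ± 0.585 for words reading toward. Words of this family overlap each other, so a single run of letters such as CTCAGTGTA counts up to 3 times among words and once among peaks.

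The direction was seen with G after TCAGT and not with another letter there. The word TCAGTG read away 146 times and toward 43 times in these windows. With another last letter the counts were 48 away and 63 toward for TCAGTT, 26 and 37 for TCAGTC, and 27 and 24 for TCAGTA. The pattern was present across strengths, in 33.7% of the distal peaks above the 60th percentile, in 77 of the 308 below the 40th, and in 30.5% of those found in both replicate sets. Peaks in gene bodies far from a TSS shared it, with 21.0% holding a word that read away and 82.7% of their words reading away. Peaks within 500 bp of a TSS had it least of the 3 kinds compared, at 10.6% and 65.3%. No cause of the pattern was tested. Whether the words lie at the starts of the sequenced reads, rather than at bound DNA, was not tested either, since neither the reads nor the control library was analysed here, so the shares describe the called summits only.

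**Figure D3:**
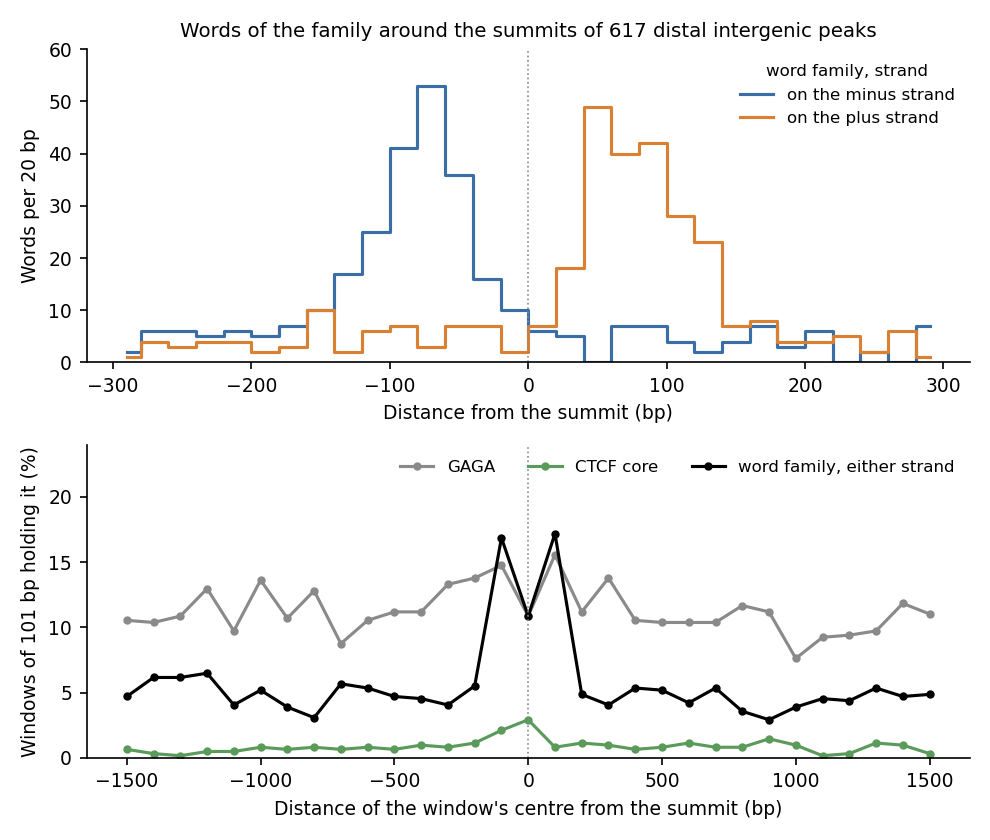
Top, number of family words per 20 bp around the summits of the 617 distal intergenic peaks, with words whose CAGTG form is on the plus strand and on the minus strand drawn apart. Minus-strand words peak to the left of the summit, with 53 between 80 and 60 bp, and plus-strand words to the right, with 49 between 40 and 60 bp. Bottom, percent of 101 bp windows that hold a family word, GAGAG or the CTCF core by distance from the summit, where the word family reaches 16.9% and 17.2% at 100 bp on either side and 10.9% at the summit.

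Strict X-boxes were rare at distal intergenic summits, and the replicates lay on opposite sides of the share of all peaks. Within 100 bp of the summit they were found in 5 of 617 (0.810%, Wilson interval 0.347 to 1.88), against 0.757% of all peaks and 3 of the 617 windows 1000 bp downstream. In replicate 1's own set the share was 1 of 437 (0.229%), against 0.509% of all its peaks, and in replicate 2's own set it was 5 of 367 (1.36%), against 0.849%. The 5 were not strong as a group. The Slob peak had a pooled signal of 645.4 (433.5 in replicate 1 and 218.3 in replicate 2) and overlapped both replicate sets. The other 4 had pooled signals between 58.5 and 78.7, and only the vvl peak overlapped a replicate set, that of replicate 2. The X-box arm GGCAAC was found in 60 distal peaks (9.72%), against 13.2% of all peaks and 10.5% of the windows downstream.

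Words of housekeeping promoters and of an insulator were rarer than over all peaks. The DREF site TATCGATA was found in 7 distal peaks (1.13%), against 4.82% of all peaks, and in 0 of the 617 windows downstream, which allows a share of up to 0.486%. The core of Motif 1, GGTCACAC, was found in 3 (0.486%) against 3.26%. The BEAF-32 insulator word CGATA, which also lies inside the DREF site, was found in 110 (17.8%) against 31%, with 17.99% in the windows downstream. The proneural E-box CAGCTG was found in 31 (5.02%) against 11%, with 6.97% downstream. Peaks in gene bodies far from a TSS were below all peaks for these words too. They had DREF in 0.369%, the Motif 1 core in 0.369%, CGATA in 21.2% and CAGCTG in 8.07%.

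The core of the site of CTCF, a zinc-finger insulator protein, was more frequent than over all peaks. AGNNGGCGC was found in 33 distal peaks (5.35%, Wilson interval 3.83 to 7.42), against 3.74% of all peaks and 9 (1.46%) of the windows downstream. Intergenic peaks near a TSS had it in 4.93%, inside that interval, and peaks in gene bodies far from a TSS in 3.06%. In the replicates' own distal peaks it was found in 6.04% ± 0.839 (SD, n = 2), with 1.98% downstream. The 33 had a median percentile of 56.7, against 38.6 for the other distal peaks. GAGAG, the word of GAGA factor, was found in 140 (22.7%) against 24.9% of all peaks and 16.7% downstream, and TATAAA in 182 (29.5%) against 28% and 23.5% downstream. Another 3 words were below the level of the windows downstream in the pooled set. The early-embryo Zelda site CAGGTAG was found in 1 distal peak (0.162%), against 1.04% of all peaks and 1.62% downstream. The homeodomain word TAATTA was found in 67 (10.9%) against 13.2% and 14.6%, and CACACACA in 28 (4.54%) against 5.42% and 6.65%. For TAATTA neither replicate's own set showed this direction, as both were above their windows downstream. The replicates' own distal peaks had TAATTA in 14.1% ± 1.21 (SD, n = 2), against 14.2% of all their peaks and 12.5% downstream. None of the 12 motifs was found at 179 of the distal summits. A missing match says only that these letters were not in the window, and all motifs were searched on both strands without mismatch.

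About as many distal intergenic peaks had a neighbour of their own kind as stood alone. When summits within 10 kb of each other were joined, 314 of the 617 (50.9%, Wilson interval 47.0 to 54.8) fell into 109 clusters, and 303 stood alone. Joined in the same way among themselves, 61% of the intergenic peaks near a TSS, 65.6% of the peaks in gene bodies far from a TSS and 87.7% of all peaks were clustered, so the distal share was the lowest of these, and the distal peaks were also the fewest. When only distal peaks above the median signal of the whole set were joined, 29.0% were clustered. Another peak of any kind lay within 1 kb of 24.5% of the distal peaks, against 32.6% of all peaks. Pairs made up 73 of the clusters, while 13 clusters of 5 or more held 93 peaks. In 99 of the 109 no peak of another kind lay between the first and last summit. Clustered peaks were not stronger on the whole, with a median percentile of 37.7 against 43.7 for those alone, although 26 of the 38 in the top 10% were clustered. Both replicate sets held 40.1% of the clustered peaks and 38.6% of those alone. The intervals of 52 distal peaks overlapped that of another, so close neighbours can be parts of 1 broad region.

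The largest cluster had 13 peaks over 49267 bp between NijA and CG12523, and 12 of them lay in the single gap of 75.05 kb between NijA and CG43245. Its signals ran from 60.4 to 828.1 with a median of 104.5. The 2 strongest had 561.1 and 581.4 in replicate 1 and 262.6 and 233.0 in replicate 2. Of the 13, 6 overlapped both replicate sets and 5 overlapped neither, so the weak peaks of the cluster rest on the pooled data. Words of the family were found in 4 of its peaks and the CTCF core in none.

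The second cluster, 9 peaks over 15108 bp between RFeSP and chinmo, held several strong peaks. Its median signal was 296.6, the 83.6th percentile, and 4 of its peaks were in the top 10%. In order along the arm the 4 had 1435, 563.0, 1261 and 980.4, and both replicate sets held all of them. The peaks between them were weak, with 57.7, 75.5 and 81.2, and none of these overlapped the replicate 1 set. The nearest annotated genes on either side were the noncoding lncRNA:CR44603 and lncRNA:CR45695, at the edges of a gap of 20.9 kb.

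The other large clusters ranged from compact to spread. The cluster between scyl, an inhibitor of TOR signalling, and Dyro had 8 peaks over 5921 bp with signals from 22.6 to 311.3, and 6 overlapped both replicate sets. The cluster between Ids and sty, the gene of the receptor tyrosine kinase inhibitor Sprouty, had 8 peaks over 18765 bp. Its 2 strongest, 265.1 and 486.6, lay next to each other at the Ids end, and 4 of the other 6 overlapped neither replicate set. The cluster between hng3 and CG13898 had 7 peaks over 21798 bp around genes of isoleucine tRNA, led by the peak of 1039 and with 2 others above 250. The cluster before foxo had 6 peaks over 13232 bp, of which the 2 strongest, with 712.9 and 1711, were neighbours.

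**Figure D4:**
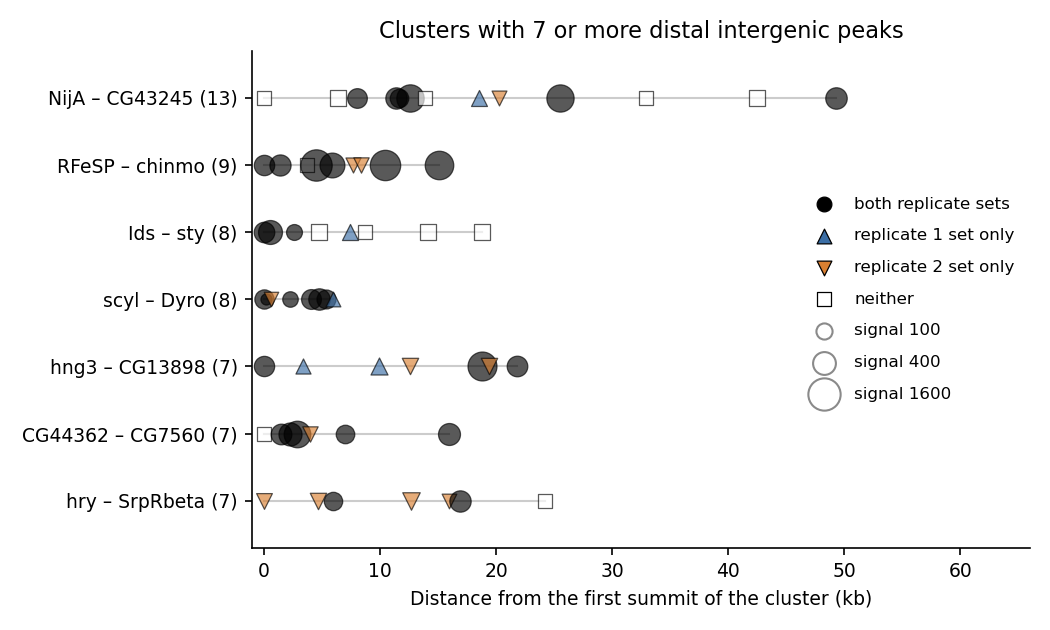
The 7 clusters with 7 or more distal intergenic peaks, each drawn by distance from its first summit (kb), with symbol area growing with the square root of pooled signal and symbol shape and colour giving the replicate sets that the peak overlaps. The chinmo cluster has 6 of 9 peaks in both sets and the NijA cluster 6 of 13.

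Counted by gaps between gene bodies, 411 of the 3195 gaps with eligible DNA held a distal intergenic peak (12.9%), and 291 of these held 1. The 19 gaps with 4 or more held 106 peaks, 17.2% of the group, in 1.46% of the eligible DNA. After the NijA gap with 12, the fullest were the RFeSP to chinmo gap with 9, the gap between scyl and lncRNA:CR44720 with 8, and then, with 6 each, the gaps that end at CG13898, CG7560 and Ppa, the gap between Ids and lncRNA:CR45737 and the gap between lncRNA:CR45585 and lncRNA:CR46352. The Ppa gap, next to RYBP, the gene of a Polycomb complex subunit, was the densest of them with 648 peaks per eligible Mb. The Ids gap, with 508 peaks per eligible Mb, and the last of these gaps, which lies between plh and corto, were named after their values had been seen. In the latter the signals ran only from 66.3 to 77.6 and no peak overlapped both replicate sets.

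By the orientation of the genes on either side, 134 distal intergenic peaks lay between divergent genes (21.7%, in 17.0% of the eligible DNA), 180 between convergent and 303 between tandem genes. Per Mb this came to 25.05, 20.3 and 19.1. Noncoding RNA genes made up 30.3% of the nearest genes on either side and protein-coding genes 67.8%. At least 1 noncoding RNA gene bordered 303 of the peaks, and 292 lay between a pair of protein-coding genes. The same shares over all gaps with eligible DNA are not given here. These values therefore do not show whether noncoding neighbours were more common than usual for such DNA.

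Protein-coding genes beside a distal intergenic peak numbered 706 of the 4237 that border eligible DNA (16.7%). A peak within 500 bp of their own TSS was found for 29.3% of them, against 28.5% of the bordering genes without a distal peak and 35.4% of all protein-coding genes. Among the 95 genes with 3 or more distal peaks the share was 45 (47.4%, Wilson interval 37.6 to 57.3), and these genes bordered a median of 26.9 kb of eligible DNA against 3.85 kb for all bordering genes. For 208 distal peaks (33.7%) the nearest coding TSS had a peak of its own. Rfx itself bordered none.

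Genes of several transcription factor families were often beside a distal intergenic peak, and they border more eligible DNA than most genes. A peak between a pair of genes of 1 list counts for both. Of the T-box genes, 5 of 7 were beside one, with 73.5 adjacencies of a gene and a peak per Mb of eligible DNA against 20.2 for all protein-coding genes. They included Doc2 with 4 peaks, Doc1 with 3 and mid, which acts in heart and segment patterning, with 3. All 3 of the Doc1 peaks were also Doc2 peaks, and the 13 adjacencies of the T-box list came from 9 peaks. Of the genes on the forkhead list, which leaves slp1 and slp2 to the gap and pair-rule list, 4 of 12 were beside one, at 73.6 per Mb, led by foxo with 6 and fkh, a gene of gut and salivary gland, with 3. Without foxo, left out after its values had been seen, the forkhead density was 36.5 per Mb. Of the Sox genes, 5 of 6 were beside a distal peak, at 45.9 per Mb, among them Sox21b with 2 peaks up to 562.2 in signal. The 8 adjacencies came from 6 peaks, and of these only the peak between Sox21a and Sox21b overlapped both replicate sets. The 2 Sox100B summits lay 204 bp apart, so they may be parts of 1 broad region.

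Of the gap and pair-rule genes, 9 of 21 were beside a distal peak, at 43.7 per Mb (29.8 without hry). The pair-rule repressor hry had 10 in 57.3 kb, slp1 and slp2 shared 2, and the head gap genes ems and oc had 3 each in 59.8 and 44.2 kb. Of the other homeobox genes, 19 of 57 were, at 24.9 per Mb, with 8 each for vvl and hth. Of 8 Hox genes 1 was, abd-A, with a signal of 72.1, at 10.8 per Mb. That share of 12.5% had a Wilson interval of 2.24 to 47.1, which includes the 16.7% of all genes. Signalling ligands had 7 of 18 beside a distal peak, at 27.9 per Mb, among them wg, a Wnt gene. The list of axon guidance and neuronal adhesion genes had 11 of 34, at 17.3 per Mb, among them 18w, robo2 and robo3. Both shares were higher than the 16.7% of all genes, at densities on either side of the 20.2. The basic helix-loop-helix genes of the proneural list had 2 of 12, sim and Oli.

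Cilium genes were beside a distal peak about as often as all protein-coding genes, within a wide interval. Of 15 that border eligible DNA, 2 were beside a distal peak (13.3%, Wilson interval 3.74 to 37.9), at 17.0 per Mb. They were IFT57, an intraflagellar transport gene, with a signal of 154.5, and nompC, a mechanosensory channel gene, with 91.1. Cytosolic ribosomal protein genes had 3 of 19, at 5.90 per Mb, chemoreceptor genes 9 of 75 and cuticle protein genes 5 of 25. The lists are small and their intervals wide, as the plot of shares by list shows, and the median eligible DNA per gene, from 2.21 kb for ribosomal proteins to 25.4 kb for Sox genes, differed as well. The part of this room in the shares was not tested.

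**Figure D5:**
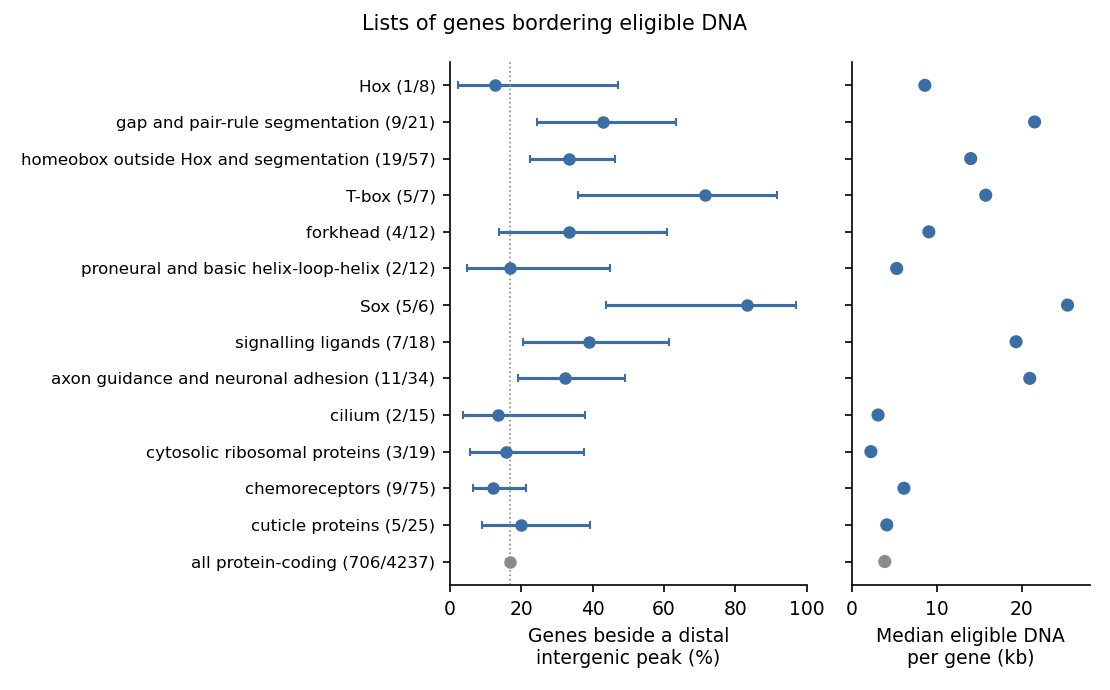
Left, percent of the genes of each list that are the nearest protein-coding gene on either side of a distal intergenic peak, among those bordering eligible DNA (counts in brackets), with 95% Wilson intervals as bars and a dotted line at the 16.7% of all protein-coding genes. Right, median eligible DNA per gene in kb, which is 25.4 for Sox genes and 3.85 for all protein-coding genes.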

How the data were processed

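Chromatin immunoprecipitation sequencing peaks of 2 biological replicates were used as deposited by the authors. Per the file headers and the labels the build is dm6, and the larger thresholded set made from both replicates served as the main set. Neither the aligner nor the peak caller is given in the sources used here, nor any version of them, and depth is unknown, since no read counts were in the files used. The deposited signal is the caller's enrichment value, and the deposited score is the irreproducible discovery rate (IDR) turned into whole numbers of at most 1000, with a lowest score of 830 that stands for an IDR of 0.01.

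Summits (start plus offset) on the arms were placed on Ensembl release 115 (BDGP 6.54, transposable elements left out), which left out 3 peaks, and sequence was read from the RefSeq genome of the same build. Motifs were searched within 100 bp of the summit and in a window 1000 bp downstream. Overlap needed 1 bp. Clusters joined summits within 10 kb. A gene was beside a peak when it was the nearest protein-coding gene on either side. Intervals are Wilson intervals. No test was run, because there is 1 group. The steps ran in Python 3.11.15 (pandas 2.3.3, numpy 2.4.6, matplotlib 3.10.9, scipy 1.17.1) and were tested on simulated data.

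The members, motifs and the 13 gene lists were chosen with earlier results of these data known. Names came from a rule: the 12 strongest peaks, the 6 fullest gaps, the 5 largest clusters, every strict X-box, the 3 farthest peaks, 3 on each side of the limit, up to 3 genes per list with the most peaks, and Rfx. Names outside it were chosen after their values were seen, and these are the word windows, the replicate extremes, further clusters and AGGTGG. The listed names cut, dys and Dl matched no gene. Alternatives were each replicate's set, the conservative set, stronger peaks, other TSS limits, annotations, overlaps, windows and linking distances.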

Additional observations from a re-analysis of the deposited data

How the results depend on the processing

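No paired analysis was possible because there is 1 group. A value was taken as moved when it shifted by more than the SD of the 2 replicate sets, or a count by more than 1.5 times. Of 101 alternatives 54 moved a value, and the cause was not tested where the alternative's own construction (fewer peaks, another limit) does not show it.

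With either replicate's set in place of the pooled one, the values ran from 367 to 437 members, 5.28% to 6.95% of peaks, 11.7 to 13.9 per Mb, the 34.8th to 43.7th percentile, 56.5% to 67.3% in the other replicate's set, 75.1% to 79.3% in the conservative set, 0.229% to 1.36% with a strict X-box, 1.36% to 1.37% with a DREF site, 23.3% to 24.3% with GAGAG, 40.6% to 42.3% in clusters, 11.1% to 13.0% of genes beside a member and 17.7% to 21.5% with a word of the family. Replicate 2's set alone, at 367 members and 11.7 per Mb, took the count and the density down by over 1.5 times, and the strict X-box share of 0.229% came from replicate 1's set. The conservative set gave 14.1 per Mb, 54.9% in both replicate sets, 1.35% with DREF, 46.0% in clusters and 13.1% of genes. The peaks above the median signal gave 241 members, 5.21% of peaks, 7.68 per Mb, 84.6% in both sets, 98.3% in the conservative set, 1.66% with DREF, 22.0% with GAGAG, 29.0% in clusters and 8.38% of genes. A limit of 1000 bp gave 9.29% of peaks, 23.8 per Mb, 1.05% with DREF and 52.2% in clusters. A limit of 5000 bp gave 271 members, 2.93% of peaks, 12.2 per Mb, 0% with DREF (which allows up to 1.11%), 24.7% with GAGAG, 47.6% in clusters and 15.3% of genes. Protein-coding genes only gave 9.70% of peaks, 24.4 per Mb, 1.00% with DREF, 24.0% with GAGAG, 59.98% in clusters and 19.7% of genes. Windows of 50 bp gave 0.486% with DREF and 10.9% with GAGAG, and windows of 150 bp gave 34.8% with GAGAG. Linking at 5 kb gave 40.4% in clusters and at 20 kb 58.5%. Counting the nearer flanking gene alone gave 10.1% of genes. The median percentile and the strict X-box share moved by less than the replicate spread in every alternative run. For the X-box that spread was 0.802 points against a share of 0.810%, so the comparison could hardly show a move. For DREF the spread was 0.00750 points, so very small shifts counted as moves. The count of moved values depends on these spreads.

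The limits are the unknown depth, 1 genotype, whole embryos, a control library not analysed here and peaks selected by reproducibility. Gene lists are small, long gaps give a gene more room, and the words were noticed in these data before they were counted.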
